A study of Mus musculus with 13 samples.

Results

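The effect of *Acly* deletion on macrophages after 24 h of LPS was examined in 6 of the 13 RNA-seq libraries of the series, 3 from control and 3 from AclyM-KO cultures. The rule took every library of this time point except control 24 h replicate 1, which held 34467 counts in all. The controls were bone marrow-derived macrophages (BMDMs) of Acly fl/fl mice, in which an exon of *Acly* is flanked by loxP sites but intact. In AclyM-KO mice the same floxed alleles are combined with *Lyz2*-Cre, in which the LysM promoter drives Cre in myeloid cells, so the deletion is limited to cells that have used this promoter. Donors of both groups were female, bone marrow was grown into macrophages in medium conditioned by L929 fibroblasts, and both groups received LPS for 24 h. Nothing in the sources says that the cultures came from separate mice, so p-values measure the spread between these samples, which may be technical.

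ATP citrate lyase, the product of *Acly*, splits cytosolic citrate into acetyl-CoA and oxaloacetate. Acetyl-CoA feeds fatty acid and cholesterol synthesis and is the donor for protein acetylation, histones included. LPS, a part of the outer membrane of Gram-negative bacteria, is sensed by Toll-like receptor 4 and starts a gene programme in which an early wave of cytokines is followed by later genes for antimicrobial enzymes, surface receptors and metabolism. The question of the comparison was how that programme differs without the enzyme. The account is mainly of functions other than lipid synthesis and cytokines.

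Total counts over all transcripts were 22833631 to 24645825 in the AclyM-KO libraries, 22104498 and 21274102 in control replicates 2 and 3, and 59577343 in control replicate 4, so single values of that control carry the least counting error. Levels are given in CPM, which makes libraries of unequal depth comparable, from the counts on 1 transcript row per gene after TMM scaling. A gene was called changed, and is written as higher, lower, risen or fallen, when edgeR's quasi-likelihood test gave an adjusted p under 0.05 with an absolute log2 fold change over 0.75. The marker genes were those of macrophages: all 10 markers were tested, 9 of them were not past the thresholds, and their summed level was 10350 to 10860 CPM in the controls and 7769 to 7945 in AclyM-KO libraries, where *Lyz2* is the member that fell. Summed markers of neutrophils were 7.31 to 11.1 CPM in controls and 9.88 to 11.5 in AclyM-KO libraries, with *Ly6g*, *Elane* and *Retnlg* at 0, and those of dendritic cells were 12.7 to 16.2 and 15.5 to 26.7 CPM. For the dendritic cell markers, 4 of 10 were tested and none was changed; their part in the results was not tested. In bulk RNA, fewer cells of a type and less RNA per cell cannot be told apart.

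*Acly* itself checks the labels. It lies on chromosome 11 of GRCm38 from 100476352 to 100528000 on the minus strand, and its count covers exons outside the deleted one. *Acly* was at 188, 182 and 179.7 CPM in the control libraries and 50.02, 50.7 and 48.3 CPM in the AclyM-KO libraries. The groups were far apart, at 183 ± 4.37 against 49.7 ± 1.24 CPM (SD, n = 3 each), which is a log2 fold change of -1.88, SE 0.06, adjusted p = 8.41e-20. *Lyz2*, the lysozyme gene whose locus carries the Cre, was the other gene that the design itself touches. *Lyz2* was at 4050, 3931 and 4214 CPM in the control libraries and 1429, 1590 and 1569 CPM in the AclyM-KO libraries. It was lower by 1.41 on the log2 scale (SE 0.07, adjusted p = 3.18e-09), again with every AclyM-KO library below every control. Macrophage markers not tied to the Cre locus differed little, with log2 fold changes of -0.04 for *Adgre1* and 0.02 for *Cd68*. Of the 147 genes tested within 5 Mb of *Acly*, 3 were changed, where 1.38% of all genes tested were, namely *Hap1* at a distance of 129025 bp, *Csf3* and *Itgb3*. Within 5 Mb of *Lyz2*, 0 of 36 genes tested were changed by edgeR or DESeq2. Of these 36, 12 had an unadjusted p under 0.05 in edgeR's test, where 26.4% of all genes tested did.

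**Figure D1:**
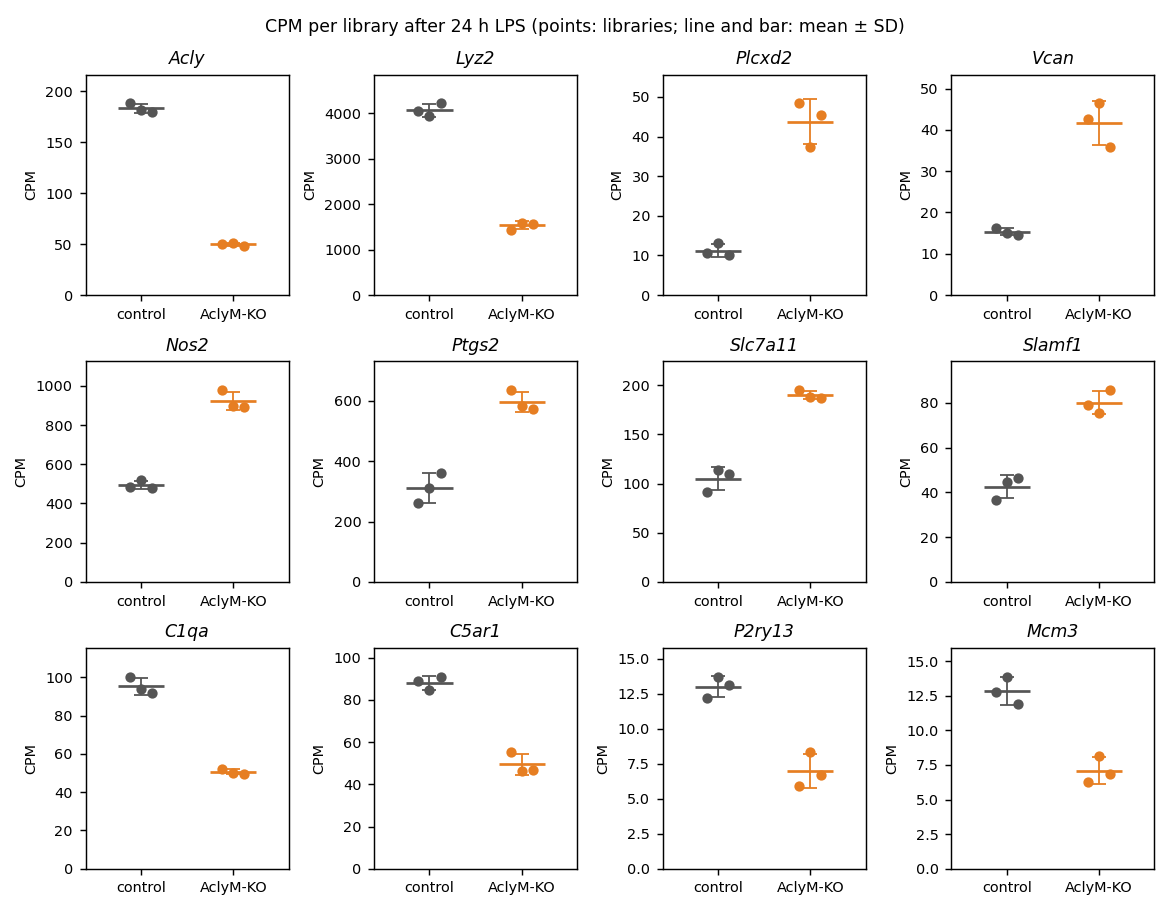
CPM on linear axes from 0 for 12 genes in the 3 control (grey) and 3 AclyM-KO (orange) libraries after 24 h LPS; points are libraries and lines with bars are means ± SD. In each panel the groups do not overlap, with *Acly* at 180 to 188 CPM in controls and 48.3 to 50.7 in AclyM-KO libraries.

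Of 11942 genes tested, 165 were changed (1.38%), 103 higher (0.863%) and 62 lower (0.519%) in AclyM-KO macrophages. Most changes were small: the median log2 fold change was 0.98 among the higher and -0.92 among the lower genes, and 49 and 21 of them were beyond 1. Changed genes were weakly expressed, with a median of the mean CPM of 3.31 for the higher and 3.81 for the lower genes against 19.1 for all genes tested. The 3 libraries of a group lay wholly to one side of the other group for 162 of the 165. Among all genes tested this was so for 17.4% toward higher and 15.4% toward lower values. With each of the 6 libraries left out in turn, 79 of the 165 genes (46 higher, 33 lower) were called every time. A call is written as stable if it is among these 79, and otherwise the libraries that decide it are named. Lipid synthesis and cytokine lists held 14 of the changed genes, and 150 changed genes besides *Acly* lay outside them.

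**Figure D2:**
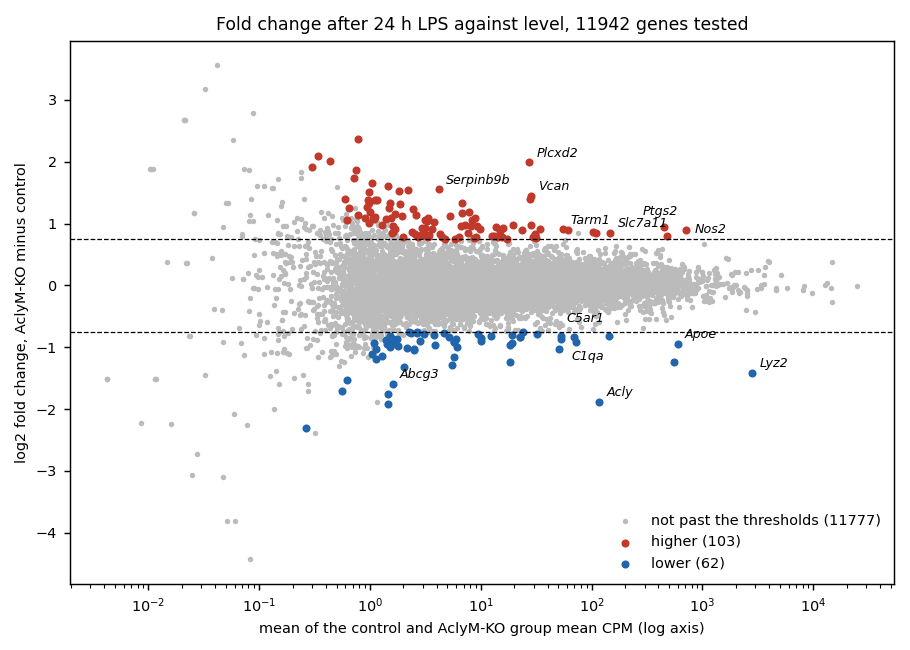
The log2 fold change (AclyM-KO minus control) of each of 11942 genes against its mean CPM on a log axis, with 103 higher genes in red, 62 lower genes in blue and the rest in grey; dashed lines mark a log2 fold change of 0.75. Most changed genes lie just outside the dashed lines, and few of them have a mean above 100 CPM.

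Sorted by known function, a grouping made after the calls were seen and therefore described without a test, the changed genes fell into 14 classes and a rest of 26. Enzymes and receptors of innate immune activation made up the largest class, with 11 higher and 9 lower genes. Among classes with more higher than lower genes were small GTPase, G protein and cyclic nucleotide signalling (10 higher, 3 lower), adhesion and matrix (11 and 2) and axon guidance and synaptic proteins (6 and 2). Cytokines, growth factors and their receptors were higher in 15 of 15, transcription factors in 6 of 6 and melanosome genes in 3 of 3. Metabolic enzymes outside lipid synthesis were lower in 6 of 6. The classes hold changed genes only, and of all 165 changed genes 103 were higher and 62 lower. The cytokine class takes in the signalling inhibitor *Socs2*, while the receptors *Cxcr3* and *Tnfrsf26* were placed in other classes. Genes of the cell cycle and DNA replication were split, with 5 each way.

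**Figure D3:**
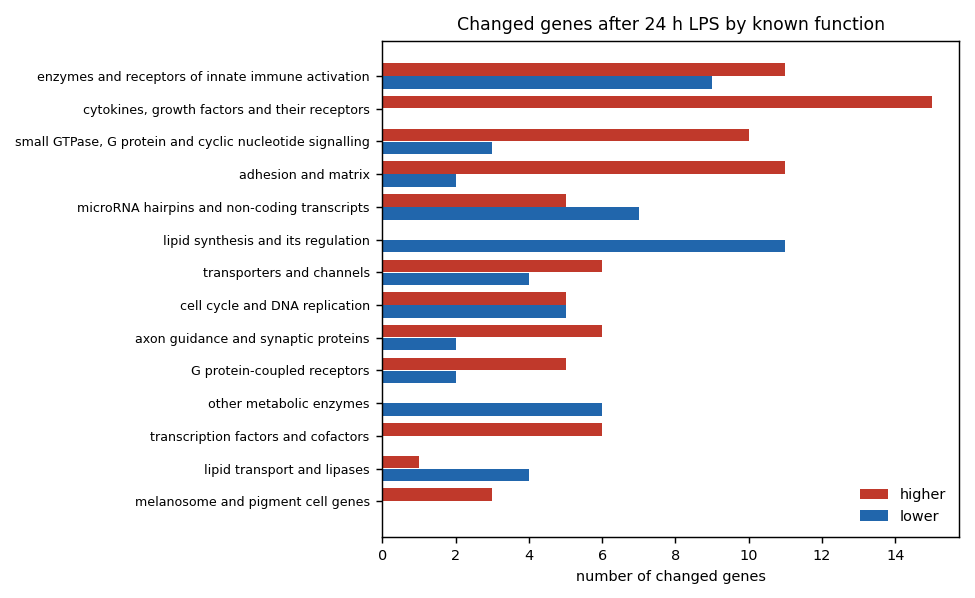
Number of changed genes that were higher (red) or lower (blue) in AclyM-KO macrophages after 24 h LPS in each class of known function; the rest of 26 genes is not drawn. Innate enzymes and receptors hold 20 genes, and lipid synthesis holds 11, all lower.

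Enzymes of antimicrobial and eicosanoid pathways were among the genes that rose. *Nos2*, the inducible nitric oxide synthase of activated macrophages, stood at 485, 518 and 479.8 CPM in the control and 978, 895 and 895 CPM in the AclyM-KO libraries. No AclyM-KO library overlapped the controls, and the log2 fold change was 0.90, SE 0.05, adjusted p = 2.92e-13. Other genes of nitric oxide, arginine and tetrahydrobiopterin metabolism did not all go with it. Of the 14 tested none was lower, with a median log2 fold change of 0.15 against -0.001 over all genes tested. By the adjusted p alone 4 were higher and 1 lower, where 7.67% and 5.84% of all genes tested were. The lower one was *Pts*, at -0.39 (adjusted p = 0.027). *Slc7a2*, an arginine carrier of macrophages, and *Ass1*, which remakes arginine from citrulline, passed the adjusted p but not the fold threshold, at 0.51 and 0.37, and *Gch1*, the first enzyme of tetrahydrobiopterin synthesis, had 0.18 (adjusted p = 0.0575).

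*Ptgs2*, which encodes the inducible cyclooxygenase that makes the precursor of prostaglandins, was at 262, 309.9 and 361 CPM in controls and 636, 582 and 573 CPM in AclyM-KO libraries. The controls varied more than the AclyM-KO libraries but did not reach them, and the log2 fold change was 0.94, SE 0.10, adjusted p = 8.52e-05. It was the 1 changed gene of 18 tested on the prostaglandin and leukotriene list, where 1.38% of all genes tested were changed. On that list *Ptger4*, a receptor for prostaglandin E2, and *Cysltr1*, a leukotriene receptor, had log2 fold changes of -0.66 and -0.53, which passed the adjusted p but not the fold threshold. *Ch25h*, cholesterol 25-hydroxylase, which makes an antiviral oxysterol, rose from 0.956, 1.21 and 0.791 CPM to 2.56, 3.54 and 1.98 CPM (log2 fold change 1.53, SE 0.26, adjusted p = 1.28e-04), at a level close to 1 CPM in the controls. *Serpinb9b*, an inhibitor of serine proteases, had 1.64, 1.92 and 2.502 CPM in controls and 6.24, 6.07 and 6.57 CPM in AclyM-KO libraries, and its log2 fold change was 1.56, SE 0.35, adjusted p = 0.0101. These rises were stable.

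Receptors on the macrophage surface moved both ways. *Slamf1*, a receptor that also senses Gram-negative bacteria and takes part in Toll-like receptor 4 signalling, was at 36.7, 44.8 and 46.3 CPM in controls and 79.2, 75.6 and 85.7 CPM in AclyM-KO libraries. It was higher in every AclyM-KO library (log2 fold change 0.90, SE 0.09, adjusted p = 8.50e-07). In the SLAM family it was the 1 changed member of 10 tested, where 1.38% of all genes tested were changed. *Tarm1*, an activating receptor of myeloid cells that pairs with the Fc receptor gamma chain, was at 38.2, 40.7 and 37.1 CPM and 74.8, 70.4 and 71.5 CPM. The groups were well apart, with a log2 fold change of 0.91, SE 0.07, adjusted p = 2.19e-10. *Procr*, the endothelial protein C receptor, rose from 64.9, 79.6 and 87.5 CPM to 152, 128 and 139.8 CPM (log2 fold change 0.85, SE 0.09, adjusted p = 6.53e-06) and dropped to 0.74, just under the fold threshold, without control replicate 2.

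Among the CD300, TREM and paired receptors, 24 were tested and the median was -0.07. *Tarm1* was higher and *Cd300e* lower, where 0.863% and 0.519% of all genes tested were. *Cd300e*, an activating receptor of monocytes, was at 26.4, 20.1 and 26.1 CPM in controls and 12.5, 14.7 and 14.6 CPM in AclyM-KO libraries. Its log2 fold change of -0.81, SE 0.12, adjusted p = 1.39e-05 was -0.74 without control replicate 4 and without AclyM-KO replicate 1. By the adjusted p alone 7 of the 24 were lower and 4 higher, *Cd300e* and *Tarm1* included. The shares among all genes tested were 5.84% and 7.67%. Those lower by this rule included the inhibitory lectin *Siglece* at -0.63, *Pilra* at -0.59, *Siglec1* at -0.47 and the adaptor *Tyrobp* at -0.40. Of the TNF superfamily and receptors (22 tested, median 0.28), *Tnfrsf26* and *Tnfrsf10b* were higher, by 0.78 and 1.12 on the log2 scale. Among all genes tested 0.863% were higher. The call of *Tnfrsf26*, a decoy receptor, was lost without control replicate 2 (0.68), AclyM-KO replicate 1 (0.70) or AclyM-KO replicate 3 (0.73). That of the death receptor *Tnfrsf10b* was lost without control replicate 4 (1.00, adjusted p = 0.0791) or AclyM-KO replicate 1 (0.95, adjusted p = 0.074).

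The complement list was the function list with the lowest median, at -0.32 over 16 genes tested. *C1qa*, *C5ar1* and *Cd55* were lower and none was higher, where 0.519% of all genes tested were lower. *C1qa* encodes a chain of C1q, the recognition molecule of the classical pathway. It was at 100.2, 93.8 and 91.8 CPM in controls and 52.3, 50.1 and 49.7 CPM in AclyM-KO libraries, with a log2 fold change of -0.91, SE 0.06, adjusted p = 1.26e-11. The neighbouring chains *C1qb* and *C1qc* had -0.56 (adjusted p = 1.13e-09) and -0.68 (adjusted p = 1.11e-10), short of the fold threshold, and *Cfp*, the stabiliser properdin, had -0.43. *C5ar1*, the receptor for the anaphylatoxin C5a, fell from 88.7, 84.5 and 90.8 CPM to 55.3, 46.4 and 46.8 CPM (log2 fold change -0.83, SE 0.06, adjusted p = 8.57e-11). The second C5a receptor, *C5ar2*, had -0.63 with an adjusted p of 0.13. *Cd55*, a membrane inhibitor of complement on host cells, was at 4.17, 3.69 and 3.24 CPM and 1.996, 1.53 and 2.23 CPM, with a log2 fold change of -0.90, SE 0.19, adjusted p = 0.00145. *C3* and *Cfb* of the amplification loop had 0.25 and -0.01 and were not past the thresholds. The calls of *C1qa*, *C5ar1* and *Cd55* were stable.

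*Lbp*, the protein that delivers LPS to CD14, was lower at a level near 1 CPM, with 1.71, 1.92 and 1.71 CPM in controls and 0.936, 0.667 and 0.765 CPM in AclyM-KO libraries (log2 fold change -1.15, SE 0.28, adjusted p = 0.00494). Toll-like receptors and their adaptors did not pass both thresholds in edgeR's test or in DESeq2 for any of 21 genes. An unadjusted p under 0.05 was reached by 9 and an adjusted one by 4, where 26.4% and 13.5% of all genes tested did. *Cd4* and *Aif1*, the gene of the actin-binding macrophage protein Iba1, were lower as well and were named after their values were seen. *Cd4* had 16.1, 14.8 and 16.4 CPM in controls and 9.11, 9.35 and 8.67 CPM in AclyM-KO libraries (log2 fold change -0.81, SE 0.11, adjusted p = 3.73e-06). *Aif1*, at 69.2, 55.5 and 76.8 CPM against 44.9, 34.7 and 35.5 CPM, had a log2 fold change of -0.82, which was -0.70 without control replicate 4.

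G protein-coupled receptors showed a similar mixture. *P2ry13*, a receptor for ADP, fell from 12.2, 13.7 and 13.1 CPM to 5.92, 8.34 and 6.695 CPM (log2 fold change -0.90, SE 0.12, adjusted p = 2.97e-06). It was the 1 changed member of 17 purine receptors and ectoenzymes tested, where 1.38% of all genes tested were changed. Its relative *P2ry12* had -0.74, just short of the fold threshold, while *Adora2b*, a receptor for adenosine, had 0.63. *Cxcr3*, the receptor for the interferon-induced chemokines, was at 0.956, 1.42 and 1.098 CPM and 1.93, 2.47 and 1.85 CPM (log2 fold change 0.86, SE 0.25, adjusted p = 0.0214), and its call was lost without control replicate 2, control replicate 4 or AclyM-KO replicate 2, at 0.73 to 0.81. Named after their values were seen, *Hcar2*, the receptor for niacin and ketone bodies, was higher by 1.05, *Htr2a*, a serotonin receptor, by 0.94 and *Fzd1*, a Wnt receptor, by 0.96 on the log2 scale, and all these calls were stable. *Gpr35* was lower by 0.78, a call lost without control replicate 2, control replicate 4, AclyM-KO replicate 1 or AclyM-KO replicate 3, at -0.84 to -0.59.

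The largest change of a gene with a mean above 10 CPM in a group, *Acly* included, was that of *Plcxd2*, a little studied phospholipase C-like gene. It stood at 10.5, 13.1 and 9.98 CPM in controls and 48.4, 37.5 and 45.5 CPM in AclyM-KO libraries, which do not come near each other. The log2 fold change was 1.99, SE 0.11, adjusted p = 2.32e-13, or 3.99-fold, and it ranged from 1.89 to 2.10 with each library left out. *Vcan*, versican, a large matrix proteoglycan made by activated macrophages, came next among the higher genes above 10 CPM. It was at 16.2, 14.99 and 14.7 CPM in controls and 42.6, 46.5 and 35.9 CPM in AclyM-KO libraries (log2 fold change 1.45, SE 0.17, adjusted p = 2.01e-04). It was the 1 changed gene of 25 matrix proteins and proteases tested, where 1.38% of all genes tested were changed. On that list *Mmp9* and *Mmp12* had 0.71 and 0.86 with adjusted p-values of 0.164 and 0.101. *Adamts14*, a procollagen peptidase, rose from 0.341, 0.426 and 0.638 CPM to 1.56, 1.202 and 1.72 CPM, and *Hapln4*, a hyaluronan link protein, from 0.683, 0.568 and 0.460 CPM to 0.749, 1.74 and 1.66 CPM. The call of *Adamts14* was stable, and that of *Hapln4* was lost without control replicate 3, control replicate 4, AclyM-KO replicate 2 or AclyM-KO replicate 3, at 1.12 to 1.36.

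Most of the changed adhesion genes were higher. *Pecam1*, the homotypic adhesion molecule CD31, was at 3.55, 4.55 and 4.34 CPM in controls and 12.1, 6.81 and 9.18 CPM in AclyM-KO libraries, with a log2 fold change of 1.17, SE 0.18, adjusted p = 3.02e-05. AclyM-KO replicate 2 was the lowest of its group but still above the controls. *Itgb3*, the beta chain of the vitronectin receptor, rose from 19.4, 23.9 and 15.6 CPM to 35.5, 39.9 and 37.2 CPM (log2 fold change 0.98, SE 0.18, adjusted p = 0.00364). Both calls were stable. *Pecam1* and *Itgb3* were the 2 changed of 25 integrins and adhesion genes tested, where 1.38% of all genes tested were changed, and the median of the 25 was 0.11. The partner chain *Itgav* of the vitronectin receptor had 0.05 and *Itgax*, a marker of some activated macrophages, had 0.67 with an adjusted p of 0.0543. *Itga9* was lower by 0.96 on the log2 scale, and *Cd24a* was higher by 0.93, both named after their values were seen.

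Small GTPase and cyclic nucleotide genes were chosen for mention partly after their values were seen. By the rule for named genes, *Rgs16*, which shortens G protein signals, rose from 0.546, 0.639 and 0.460 CPM to 1.44, 1.402 and 1.27 CPM (log2 fold change 1.38, SE 0.30, adjusted p = 0.00181), and *Diras2*, a Ras-like GTPase, from 1.23, 0.710 and 1.17 CPM to 2.43, 2.94 and 2.68 CPM (log2 fold change 1.31, SE 0.28, adjusted p = 0.00138). *Srms*, a Src-related kinase, rose from 0.751, 0.284 and 0.485 CPM to 1.996, 1.27 and 1.53 CPM, and *Inka2*, an inhibitor of a p21-activated kinase, from 0.956, 0.995 and 0.766 CPM to 2.12, 1.53 and 2.55 CPM. Apart from *Inka2*, whose call was lost without control replicate 4 (1.08) or AclyM-KO replicate 3 (1.07), these calls were stable. A pair of phosphodiesterases that break down cyclic GMP was also higher. *Pde5a* was at 4.71, 5.896 and 6.28 CPM in controls and 13.3, 10.3 and 12.9 CPM in AclyM-KO libraries, and *Pde2a* at 24.04, 22.2 and 20.4 CPM and 37.2, 41.2 and 37.9 CPM, with log2 fold changes of 1.09 and 0.81. The groups did not overlap for either, and *Pde2a* had 0.74 without control replicate 4. *Arfgef3*, of the family of ARF exchange factors, was higher by 0.97, and *Fgd2*, an exchange factor for CDC42, was lower by 0.86 on the log2 scale, both stable.

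Transporters of amino acids held 3 higher genes and no lower one among 25 tested, where 0.863% of all genes tested were higher. Their median was 0.05. *Slc7a11*, the cystine carrier of the cystine-glutamate exchanger, was at 91.3, 114 and 109.8 CPM in controls and 195, 188 and 187 CPM in AclyM-KO libraries. All AclyM-KO libraries were above all controls, and the log2 fold change was 0.85, SE 0.12, adjusted p = 4.19e-04. Its heavy chain *Slc3a2* had 0.48 (adjusted p = 1.49e-07), short of the fold threshold. *Slc6a9*, a glycine carrier, rose from 3.005, 3.91 and 3.06 CPM to 6.74, 7.54 and 7.21 CPM (log2 fold change 1.13, SE 0.18, adjusted p = 4.44e-05). *Slc6a19*, a carrier of neutral amino acids, was at 10.4, 13.5 and 10.8 CPM and 19.9, 18.6 and 20.9 CPM (log2 fold change 0.79, SE 0.13, adjusted p = 4.75e-05), and its fold fell to 0.73, 0.73 and 0.75, the last just below the threshold, without control replicate 2, control replicate 4 or AclyM-KO replicate 3. Other genes of the NRF2 and glutathione list differed less. *Slc7a11* was the 1 changed of 22, where 1.38% of all genes tested were changed, and *Nqo1*, *Gss* and *Srxn1* had 0.61, 0.39 and 0.35. By the adjusted p alone 9 of the 22 were higher and 1 lower, where 7.67% and 5.84% of all genes tested were. The ATF4 and serine one-carbon list had no changed gene among 18 tested by edgeR or DESeq2, and its median was 0.03. There 4 genes had an unadjusted p under 0.05, where 26.4% of all genes tested did.

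The 4 lower genes of transporters and channels had few counts. *Abcg3*, a member of the ABCG family, fell from 2.53, 2.42 and 2.32 CPM to 0.811, 0.934 and 0.638 CPM (log2 fold change -1.59, SE 0.26, adjusted p = 6.07e-05), *Abcd2*, a peroxisomal carrier of fatty acids, by 1.02 and *Trpm2*, a calcium channel opened by ADP-ribose, by 0.98 on the log2 scale. None of the groups of these 3 overlapped and their calls were stable. *Slc35g1*, a solute carrier family member named after its values were seen, was at 1.64, 0.853 and 1.74 CPM in controls and 0.561, 0.534 and 0.956 CPM in AclyM-KO libraries, so its groups overlapped, and its log2 fold change of -1.10 was lost as a call without control replicate 2, control replicate 4, AclyM-KO replicate 1 or AclyM-KO replicate 2 (-1.05 to -0.86). *Slc16a14*, a member of the monocarboxylate transporter family, was higher, at 0.478, 0.426 and 0.179 CPM in controls and 1.25, 0.801 and 1.34 CPM in AclyM-KO libraries, with log2 fold change 1.87 and a call lost without control replicate 4 (1.31, adjusted p = 0.0987).

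Metabolic enzymes outside lipid synthesis were lower where they were changed. Glycolysis and the pentose phosphate pathway had a median of -0.15 over 23 genes tested. Of these, 7 were above 0 and 16 below, where 49.8% of all genes tested were above 0. By the adjusted p alone 7 were lower and 2 higher, where 5.84% and 7.67% of all genes tested were. Only 1 of the 23 was changed, where 1.38% of all genes tested were. *Aldoc*, an aldolase, was the changed member, at 5.87, 5.83 and 5.999 CPM in controls and 3.18, 3.004 and 4.27 CPM in AclyM-KO libraries. Its log2 fold change of -0.76 fell short of the threshold without control replicate 4 (-0.74), AclyM-KO replicate 1 (-0.70) or AclyM-KO replicate 2 (-0.67). *Pfkl*, the liver-type phosphofructokinase, had -0.59 (adjusted p = 3.73e-06 from the same test), *Tpi1* -0.34 and *Ldha* -0.23, while *Pfkfb3*, which makes the activator of phosphofructokinase, had 0.46. *Npl*, which splits sialic acid, fell from 3.005, 3.41 and 3.52 CPM to 1.62, 1.53 and 1.78 CPM (log2 fold change -1.02, SE 0.19, adjusted p = 2.38e-04), and *Mmachc*, a cobalamin-processing enzyme, by 1.00 on the log2 scale. *Pygl*, glycogen phosphorylase, was named after its values were seen and lay at 27.6, 27.9 and 30.4 CPM in controls and 13.97, 16.8 and 17.8 CPM in AclyM-KO libraries, with a log2 fold change of -0.84 that was -0.74 without AclyM-KO replicate 1. The itaconate and citrate cycle list had no changed gene among 21 in edgeR or DESeq2, and its median was -0.10. There 8 genes had an unadjusted p under 0.05, where 26.4% of all genes tested did.

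Lipoprotein and lipid transport genes, apart from synthesis, were lower in 4 of 5 changed cases and were named after their values were seen. *Apoe*, the apolipoprotein that macrophages secrete in cholesterol efflux, was at 804, 810.5 and 747 CPM in controls and 379, 416 and 435 CPM in AclyM-KO libraries. Its groups were far apart, with a log2 fold change of -0.94, SE 0.09, adjusted p = 8.04e-06. *Apoc2*, the cofactor of lipoprotein lipase, shares its counts with the read-through gene *Gm44805* on the same strand, and its log2 fold change was -0.91. *Stard4*, a carrier of sterols between membranes, was lower by 0.79 on the log2 scale and just missed the threshold at -0.71 without AclyM-KO replicate 1. *Lipg*, endothelial lipase, was higher, from 24.1, 22.02 and 21.2 CPM to 43.3, 35.98 and 39.7 CPM (log2 fold change 0.83, SE 0.09, adjusted p = 1.17e-06).

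Replication and cell cycle genes changed in both directions at low levels. *Mcm3*, a subunit of the replicative helicase, fell from 12.8, 13.8 and 11.9 CPM to 6.300, 8.14 and 6.82 CPM (log2 fold change -0.84, SE 0.14, adjusted p = 5.75e-05). *Mcm5*, another subunit, was at 7.78, 6.68 and 5.64 CPM and 2.99, 4.005 and 3.95 CPM, with -0.83, and its call was lost without control replicate 2 (-0.72), control replicate 3 (-0.82, adjusted p = 0.052) or AclyM-KO replicate 1 (-0.71). The other subunits *Mcm2*, *Mcm4*, *Mcm6* and *Mcm7* had -0.30, -0.28, -0.17 and -0.58 and none passed the adjusted p. Of the 30 genes tested on the list, *Mcm3* and *Mcm5* were the 2 lower ones and none was higher, where 0.519% of all genes tested were lower. The class held 5 higher and 5 lower genes. Of the higher ones, named after their values were seen, *Gtse1* and *Gadd45g* had 1.06 and 0.88, both stable. *Cdkn1c* had 0.76, a call lost without control replicate 4 (0.70), AclyM-KO replicate 2 (0.72) or AclyM-KO replicate 3 (0.74). The cell cycle inhibitor *Cdkn1a* had 0.58 and *Mki67*, a proliferation marker, had 0.22.

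Regulators of transcription were higher where they were changed. *Klf4*, a factor of monocyte differentiation, was at 23.6, 23.8 and 23.1 CPM in controls and 39.8, 42.6 and 37.04 CPM in AclyM-KO libraries. Its replicates agreed closely, with a log2 fold change of 0.76, SE 0.09, adjusted p = 2.69e-07, but the value lies near the threshold and was 0.75 and 0.71 without control replicate 4 and AclyM-KO replicate 2, where the call was lost. *Mycl*, a MYC family member, rose from 5.26, 4.62 and 6.23 CPM to 10.9, 9.95 and 8.93 CPM (log2 fold change 0.84, SE 0.14, adjusted p = 6.24e-05). *Ahr*, the aryl hydrocarbon receptor, was named after its values were seen and rose from 5.74, 8.17 and 6.64 CPM to 11.8, 12.7 and 14.2 CPM (log2 fold change 0.92, SE 0.14, adjusted p = 2.98e-05). *Bend7* rose from 0.137, 0.781 and 0.638 CPM to 1.37, 1.27 and 1.403 CPM, with a log2 fold change of 1.27 and a call lost without control replicate 2 (0.98, adjusted p = 0.0606).

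Growth factors and metal handling added a few genes. *Inhba*, which encodes the subunit of activin A, rose from 22.7, 24.5 and 23.9 CPM to 38.3, 51.5 and 44.4 CPM (log2 fold change 0.91, SE 0.10, adjusted p = 1.62e-07), a stable call. *Angptl2*, a secreted angiopoietin-like protein, was higher by 0.80, and by 0.74 and 0.68 without control replicate 4 and AclyM-KO replicate 1. *Mt2*, a metallothionein, was higher by 0.76, and by 0.68 and 0.65 without control replicate 3 and AclyM-KO replicate 1. *Socs2*, a feedback inhibitor of cytokine signalling, stood at 0.205, 0.142 and 0.0766 CPM and 0.624, 0.601 and 0.383 CPM, so its log2 fold change of 2.09 rests on 2 to 10 counts per library and its call was lost without control replicate 4 (1.57), AclyM-KO replicate 1 (1.96) or AclyM-KO replicate 2 (2.01). *Sema3c*, a secreted guidance factor, was higher by 0.85 in the full comparison and was not called when any of the 6 libraries was left out, at 0.74 to 0.97. *Tspan10*, a tetraspanin, was higher by 1.38 although control replicate 3 lay at 1.35 CPM, just under the AclyM-KO libraries at 1.37 to 1.67, and was called in 1 of the 6 fits with a library left out (0.87 to 1.45 in the others, where control replicate 3 was kept).

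The remaining genes that the rule names were weakly expressed. *Tppp3*, a tubulin-binding protein, was higher by 1.74 and *Efcc1* by 1.34, with calls lost without control replicate 3 (1.51), control replicate 4 (1.99) or AclyM-KO replicate 1 (1.57) for the former and control replicate 4 (0.81) or AclyM-KO replicate 3 (1.13) for the latter. *Psma8*, a proteasome subunit of the germ line, was lower by 1.20 in a call lost without control replicate 3, control replicate 4, AclyM-KO replicate 1 or AclyM-KO replicate 3 (-1.21 to -1.07). A transcript without a symbol was lower by 1.02, a call lost with each library left out (-1.13 to -0.96).

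**Figure D4:**
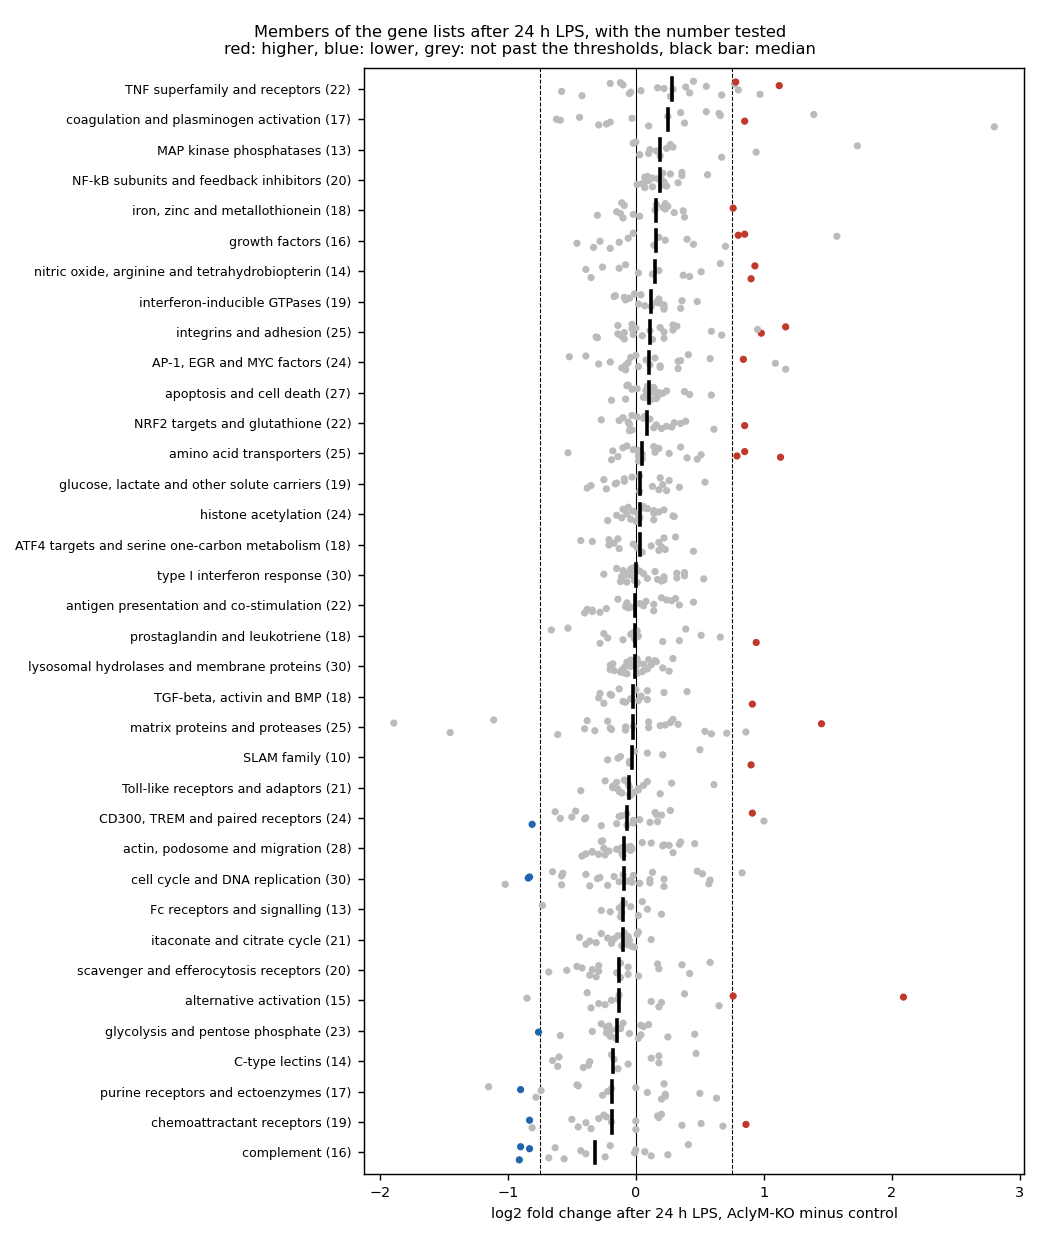
Log2 fold change (AclyM-KO minus control) of the tested members of 36 function lists, in rows ordered by their median (black bars), with higher genes in red, lower genes in blue and others in grey; dashed lines mark 0.75 in each direction. The medians run from -0.32 for complement to 0.28 for the TNF superfamily, and most members lie between the dashed lines.

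Across the 36 function lists, 723 different genes were tested, and 16 lists had no changed member. Of the 723, 22 were higher and 8 lower, where 0.863% and 0.519% of all genes tested were. Some of these lists nevertheless leaned one way below the fold threshold. All 20 NF-kB subunits and feedback inhibitors had a log2 fold change above 0, where 49.8% of all genes tested did, but the values were small, with a median of 0.19. By the adjusted p alone 8 passed, where 7.67% of all genes tested were higher by that rule. An unadjusted p under 0.05 was found for 11, where 26.4% of all genes tested had one, and none was changed by edgeR or DESeq2. The largest was *Socs3* at 0.56 (adjusted p = 4.19e-09), a feedback inhibitor of interleukin-6 signals, followed by *Zfp36* and *Socs1* at 0.36 each. With library totals in place of TMM, 19 of the 20 were above 0.

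Genes of actin, podosomes and migration leaned the other way. Of 28 tested, 15 passed edgeR's adjusted p, 10 of them lower, where 5.84% of all genes tested were lower by that rule, and none was changed in edgeR or DESeq2. *Actb* had -0.42 (adjusted p = 1.98e-07), *Tmsb4x* -0.39, *Pfn1* -0.29, *Lcp1* -0.27 and *Cfl1* -0.24, while *Rhof* had 0.46 and *Zyx* 0.35. Their summed level was 12900 to 14070 CPM in the controls and 11170 to 11580 in the AclyM-KO libraries. Medians were near 0 for the 30 genes of the type I interferon response (0.00), the 22 of antigen presentation and co-stimulation (-0.01) and the 30 lysosomal genes (-0.01). The summed level of the interferon genes was still 41410 to 44080 CPM in controls and 47190 to 47370 in AclyM-KO libraries. By the adjusted p alone, 7 interferon genes were higher and 1 lower, 5 and 1 of antigen presentation, and 4 and 5 of the lysosomal genes. The shares among all genes tested were 7.67% higher and 5.84% lower. None of these 3 lists had a changed gene in edgeR or DESeq2. An unadjusted p under 0.05 was found for 10, 11 and 12 genes, where 26.4% of all genes tested had one. Apoptosis and cell death genes were above 0 in 22 of 27 cases, where 49.8% of all genes tested were. Their median was 0.10, and again none was changed by either tool. Of the 27, 9 had an unadjusted p under 0.05, where 26.4% of all genes tested did.

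MicroRNA hairpins and other non-coding transcripts made up 12 of the changed genes. The libraries were made from mRNA, so a hairpin's count comprises tags on longer transcripts that cover it, not the mature microRNA. A mature sequence, from RefSeq on GRCm38.p6, is shown for each hairpin that rose, with the seed (bases 2 to 8) in capitals. For *Mir147* only the 5p arm is shown. The sequences shown share no seed.
mmu-miR-6367: uCCCUGAGacccugguucagga
mmu-miR-147-5p: uGGAAACAuuucugcacaaacuag
The *Mir6367* hairpin on chromosome 16 rose from 0.546, 0.639 and 0.842 CPM to 2.56, 2.002 and 2.104 CPM (log2 fold change 1.61, SE 0.27, adjusted p = 8.54e-05), a stable call. *Mir147* lies in *AA467197* on the same strand, so tags there could count for both. It was at 8.88, 10.2 and 11.7 CPM and 14.9, 19.6 and 19.9 CPM, while *AA467197*, which also encodes a mitochondrial peptide, was at 68.6, 71.1 and 76.7 CPM and 123, 133 and 139 CPM. Neither pair of groups overlapped, with log2 fold changes of 0.79 and 0.86; that of *Mir147* fell short of the threshold without control replicate 2 (0.71), AclyM-KO replicate 2 (0.73) or AclyM-KO replicate 3 (0.72). *Mir5114* was lower by 1.16 and lies within *Scd2*. Among the largest decreases of unnamed transcripts, *3110070M22Rik* fell from 2.32, 1.92 and 2.65 CPM to 0.561, 0.667 and 0.638 CPM and overlaps *Tmem267* on the opposite strand, which was lower by 1.05 in a call lost without control replicate 4 (-0.94), AclyM-KO replicate 2 (-0.73) or AclyM-KO replicate 3 (-0.97). *Gm13710*, *5031425F14Rik* and the pseudogene *Art2a* were lower by 1.75, 1.33 and 1.28 on the log2 scale, all stable.

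A promoter sequence from RefSeq was at hand for 115 of the 165 changed genes, 73 higher and 42 lower, with 93 and 53 windows of 250 bases before to 50 after a start site. The windows were searched on both strands for 12 motifs, and the shares are given without a test. The antioxidant response element TGACNNNGC was in 21.5% of the windows of higher, 20.8% of lower and 14.5% of all genes tested. The exact 95% intervals of the first 2 shares, 13.7 to 31.2% and 10.8 to 34.1%, include that of all genes tested. Some genes have more than 1 window, so windows are not independent. The AP-1 site TGANTCA was in 9.68%, 11.3% and 5.33%, the C/EBP site TTGCNNAA in 11.8%, 7.55% and 8.55%, and the amino acid response element TGATGNAA in 3.23%, 1.89% and 2.39%. The HIF core TACGTG was in 0 of 93 windows of higher genes, in 5 of the 53 of lower genes (9.43%) and in 3.78% of all tested. Its exact 95% intervals, 0.00 to 3.89% for higher and 3.13 to 20.7% for lower genes, include the share of all tested. Of the NF-kB forms searched, the longer was in 3.23% of the windows of higher genes, 0 of the 53 of lower genes and 1.75% of all tested, and the kappa core in 1.08%, 0 and 2.37%.

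The windows of *Plcxd2*, the largest rise above 10 CPM, and of *Slc7a11* and *Ptgs2*, both stable, are printed 5′ to 3′ with the motif letters in capitals. That of *Plcxd2* (chr16:46010364-46010663, minus strand) holds none of the 12 motifs. The window of *Slc7a11* (chr3:50443564-50443863, minus strand) holds a C/EBP site at positions -160 and -6 and an amino acid response element at -66 and -47 from the start site. *Ptgs2* (chr1:150099781-150100080, plus strand) has a C/EBP site at -69 and an E-box, CACGTG, at 16.
Plcxd2: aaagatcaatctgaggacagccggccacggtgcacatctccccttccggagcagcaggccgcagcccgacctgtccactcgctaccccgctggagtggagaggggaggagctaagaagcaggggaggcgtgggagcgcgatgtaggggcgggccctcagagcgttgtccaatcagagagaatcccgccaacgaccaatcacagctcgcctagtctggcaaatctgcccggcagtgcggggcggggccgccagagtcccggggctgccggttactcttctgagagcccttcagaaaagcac
Slc7a11: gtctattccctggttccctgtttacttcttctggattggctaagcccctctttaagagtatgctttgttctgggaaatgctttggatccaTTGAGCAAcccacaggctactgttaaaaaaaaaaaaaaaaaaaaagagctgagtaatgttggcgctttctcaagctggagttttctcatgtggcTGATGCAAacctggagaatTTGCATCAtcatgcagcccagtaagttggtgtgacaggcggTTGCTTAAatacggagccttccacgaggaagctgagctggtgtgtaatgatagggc
Ptgs2: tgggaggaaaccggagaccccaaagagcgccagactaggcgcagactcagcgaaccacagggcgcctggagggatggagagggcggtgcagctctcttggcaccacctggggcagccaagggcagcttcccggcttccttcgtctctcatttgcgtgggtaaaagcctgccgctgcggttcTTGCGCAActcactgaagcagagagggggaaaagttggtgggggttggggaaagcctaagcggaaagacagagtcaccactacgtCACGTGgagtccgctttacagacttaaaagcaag

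The 3 h libraries, 3 control and 3 AclyM-KO, show how far these differences were already present early after LPS. Of the 103 genes higher after 24 h, 18 were higher and 1 lower after 3 h, where 1.45% and 0.603% of all genes tested were. Of the 62 lower genes, 9 were lower and 10 higher after 3 h. The genotype effect itself differed between the times, by edgeR's interaction test at an adjusted p under 0.05, for 24 of the higher and 33 of the lower genes. Over all genes tested this was so for 9.44%. As the genes were chosen on their 24 h values, which enter that test, the counts are a description. In 22 of the 24 the effect was greater after 24 h (4.46% of all genes tested), and in 33 of the 33 it was lower (4.97%).

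*Slamf1* turned its direction, with a log2 fold change of -0.79 after 3 h and 0.90 after 24 h LPS, a difference of 1.69 (adjusted p = 3.84e-07). *C5ar1* and *P2ry13* had 0.20 and -0.05 after 3 h, so their decreases differed by -1.03 (adjusted p = 2.41e-10) and -0.86 (adjusted p = 5.01e-04). *Plcxd2*, *Vcan* and *Slc7a11* had 0.42, 0.34 and -0.02 after 3 h, with differences of 1.58, 1.12 and 0.87. For *Ptgs2*, *Apoe*, *Lipg*, *Itgb3* and *Klf4*, the values after 3 h were 0.81, -0.84, 0.82, 0.83 and 0.79, and no difference was detected between the times, with adjusted p-values of 0.667, 0.702, 0.969, 0.794 and 0.950. *Stard4* went from 0.80 to -0.79, and *Aldoc* from 0.54 to -0.76.

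**Figure D5:**
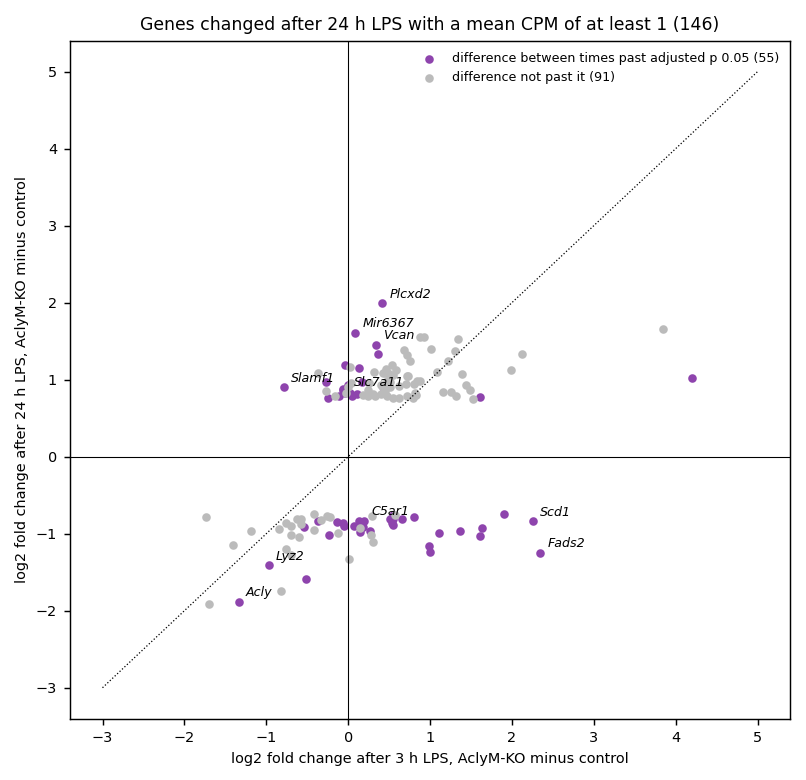
Log2 fold change (AclyM-KO minus control) after 24 h against that after 3 h LPS for the 146 changed genes with a mean of at least 1 CPM; purple marks the 55 whose effect differed between the times by an adjusted p under 0.05, and the dotted line marks equal effects. *Plcxd2* and *Vcan* lie above the line, *Slamf1* lies at -0.79 on the 3 h axis, and a group of genes lower after 24 h lies to the right of 0 on that axis.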

How the data were processed

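RNA-seq libraries of mRNA from BMDM cultures were analysed. The authors made strand-specific libraries, aligned reads to mm10 with STAR (version 2.5.2b in the submitters' processing notes) and summed tags per RefSeq transcript with HOMER, and deposited these raw counts without normalization. The strand and isoform settings of the counting are not given in the sources used here, so tags may be shared with overlapping genes. Of 35745 transcripts, 35628 were given a symbol from a RefSeq gene table (GRCm38.p6) and GENCODE M21; the 117 others held 1.13% of counts and were kept under their transcript name. For each of 24562 genes the transcript with the highest total was kept, and 0 sample columns were left unused.

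Groups came from the labels. Control 24 h replicate 1 (34467 counts) was left out, and 12 libraries of 4 groups, the 3 h libraries included, entered edgeR (4.0.16 with R 4.3.3; TMM, filterByExpr, robust quasi-likelihood test), which tested 11942 genes with Benjamini-Hochberg adjustment. All adjusted p-values in the text are from this fit. DESeq2 (1.42.0) and the other scalings, filters and sample choices were alternatives. The fit was tested on simulated data. Replicate pairs at 24 h differed beyond sampling noise (chi-square of 2.67 to 7.28 times its degrees of freedom), so none was counted as 1 sample.

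Members and lists were chosen with earlier results of these data known, and the function classes after the calls were seen. Genes are named by a rule: *Acly*, *Lyz2*, the 20 changed genes with the largest fold in each direction that had a mean of at least 1 CPM in a group and groups that did not overlap, and every changed member of a function list, 69 in all, 2 of which are not reported here. Others are said to be named after their values were seen. Motif shares and lists were described without a test.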

Additional observations from a re-analysis of the deposited data

Results flagged for a closer look

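For 26 of the named genes the difference between AclyM-KO and control macrophages after 24 h LPS departed from that after 3 h LPS, by edgeR's interaction test at an adjusted p under 0.05, where 9.44% of all genes tested did. The values below are 24 h minus 3 h differences of log2 fold changes. As most of these genes were chosen on their 24 h values, they describe the pattern only.

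Among genes higher after 24 h, the difference was 1.69 for *Slamf1*, 1.58 for *Plcxd2*, 1.52 for *Mir6367*, 1.12 for *Vcan*, 1.01 for *Mt2*, 0.87 for *Slc7a11*, 0.48 for *Tarm1* and 0.46 for *Nos2*. After 3 h the log2 fold change was below 0 for 3 of these genes, at -0.79 for *Slamf1*, -0.25 for *Mt2* and -0.02 for *Slc7a11*.

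Among receptors and complement genes lower after 24 h, it was -1.35 for *Cd300e*, -1.03 for *C5ar1*, -0.97 for *Cd55*, -0.86 for *P2ry13* and -0.36 for *C1qa*. Transport, metabolic and replication genes had -1.30 (*Aldoc*), -1.12 (*Trpm2*), -1.07 (*Abcg3*), -0.97 (*Mcm5*), -0.79 (*Npl*) and -0.71 (*Mcm3*). Genes of lipid synthesis had -3.59 (*Fads2*), -2.64 (*Fasn*), -2.24 (*Scd2*) and -2.10 (*Mvk*), and the hairpin *Mir5114* within *Scd2* had -2.15. *Acly* and *Lyz2* were lower at both times and more so after 24 h, by -0.55 and -0.44.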

How the results depend on the processing

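The numbers of changed, higher and lower genes stayed within 1.5 times of 165, 103 and 62 under other scalings, filters, tools and sample choices, with these exceptions. A minimum of 10 counts in every library left 65 higher genes of 110 changed. Without a fold threshold 1613 genes passed (916 higher, 697 lower), beyond a log2 fold change of 1 there were 70 (49 higher, 21 lower), and glmTreat, which tests against a log2 fold change of 0.75 itself, gave 4 (2 higher, 2 lower). The fold sizes of most changed genes are thus not shown to exceed the threshold used to call them. With each 24 h library left out, 135 to 167 genes were changed (79 to 98 higher, 55 to 69 lower), 782 to 928 differed between the times, and *Acly* had -1.90 to -1.86. Which genes were called moved more: 102 of the 165 were shared without control replicate 4 and 110 without AclyM-KO replicate 1. DESeq2 called 140 genes, 129 of them shared, and all 13 libraries gave 183, with 162 shared. None of the named genes turned its direction under any alternative run. The labels give replicate numbers 2 and 3 in both groups; same-numbered libraries correlated at 0.117 and -0.016 in their deviations from the group means, so the numbers were not taken to pair samples. With the replicate block 142 genes were changed, 100 of them shared with the 165. Depth limits genes near 1 CPM: 60 of the 103 higher and 33 of the 62 lower genes had a mean under 5 CPM, against 25.5% of all genes tested.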
